A study of Mus musculus with 4 samples.

Results

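The genes of potassium channels were followed in TBV2 mouse embryonic stem cells (ESCs) kept for 24 h with MS-275 or with solvent. Members were all listed symbols made of Kcn, 1 or more small letters and a number, which took 91 of the 28250 genes listed. They comprised 66 genes of pore-forming alpha subunits, 10 of modulatory alpha subunits and 15 of auxiliary subunits. TBV2 is a feeder-dependent line of the 129/SvP strain. All 4 libraries came from cells that the labels describe as kept on feeders in medium with LIF, the cytokine that holds ESCs undifferentiated, and then on gelatin. The solvent group (replicates 1 and 2) received the vehicle alone for 24 h, and the MS-275 group (replicates 1 and 2) received 5 µM MS-275, an inhibitor of class I histone deacetylases, for 24 h. Poly(A) RNA was sequenced, and each gene carried a normalized expression value. The comparison asks what a day of class I deacetylase inhibition did to these genes in cells held in self-renewal medium.

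Potassium channels let potassium ions pass the cell membrane and pull the membrane potential towards the potassium equilibrium, which sets the resting potential and ends action potentials. Voltage-gated (Kv), calcium- or sodium-activated, inward rectifier and 2-pore-domain channels differ in what opens them. Auxiliary subunits form no pore and change the gating or the surface level of the alpha subunits. Most of these genes are best known from neurons, glia, muscle, heart, kidney and pancreatic islets, and ESCs are not electrically excitable.

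The normalized value is a signal and not a read count. The values of a library summed to between 2489.6 and 4359, and the deposited alignments numbered between 9785619 and 23467935. In 1 alignment file of each condition 53.2% (solvent) and 54.4% (MS-275) of alignments repeated a position, and 0.0% did in the other. Distinct positions numbered between 9122347 and 10973569, so the number of alignments is no measure of relative depth. Nothing in the sources states that the replicates came from separate cultures, so the spread behind the p-values may be technical. The range of values differed between replicates 1 and 2 of both conditions, and the members' values made up 0.0511% of all values with solvent and 0.0686% with MS-275 in replicate 1, and 0.0209% and 0.0255% in replicate 2. Folds were therefore fitted within replicate pairs. The log2 fold change of MS-275 over solvent was taken on log2(value + 0.005) with limma, with the replicate number as a block, and p was adjusted by the Benjamini-Hochberg method over the 20336 genes at 0.001 or more in at least 2 libraries. With the block, a gene's own spread is only the disagreement between its folds in replicate pairs 1 and 2. The fit moderates that spread by the trend over all genes. On this scale the change of a gene with a value near or under 0.005 is understated.

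Potassium channel genes sat low in these cells. The median of the members' mean value over the 4 libraries was 0.00440, against 0.0125 for all listed genes, and 33 members (36.3%) reached a mean of 0.01 against 52.2% of all genes. Over genes, which are no independent replicates of each other, log2 values followed log2 alignment positions per exon length with r = 0.939 in solvent and 0.932 in MS-275, so levels of different genes are compared here as values per length. Of the 91 members, 18 and 9 were listed at 0 in solvent replicates 1 and 2, and 3 and 3 in the MS-275 libraries. Kcna10 and Kcnj1 were listed at 0 in all 4 libraries. Another 3 members, Kcnb2, Kcnj5 and Kcnk10, were listed at 0 in both solvent libraries and between 0.00035 and 0.00094 in both MS-275 libraries. A value at or above 0.001 was held by 56 and 54 members with solvent and by 79 and 68 with MS-275.

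A single member exceeded a mean of 0.1. This was Kcnk5, a 2-pore-domain channel opened by alkaline pH. Its value was 0.191 and 0.174 in solvent replicates 1 and 2 and 0.249 and 0.211 in MS-275 replicates 1 and 2. Both MS-275 libraries were above both solvent libraries, but the log2 fold change of 0.32 (SE 0.218) did not pass (adjusted p = 0.296). Among the next in level were Kcnk1, Kcnk4, Kcnj10, Kcnu1, Kcnip2 and Kcnd1, whose means over the 4 libraries lay between 0.0425 and 0.0728, and then Kcnn2, Kcnt2, Kcnh2 and Kcnip3 at 0.0277 to 0.0285. Neighbours within each of these runs did not differ beyond the spread of their libraries. The place of Kcnk4 rests on its value alone. Its 1715 exon bases held 12 and 24 distinct alignment positions with solvent and MS-275. The 5407 of Kcnj10 held 342 and 856.

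**Figure D1:**
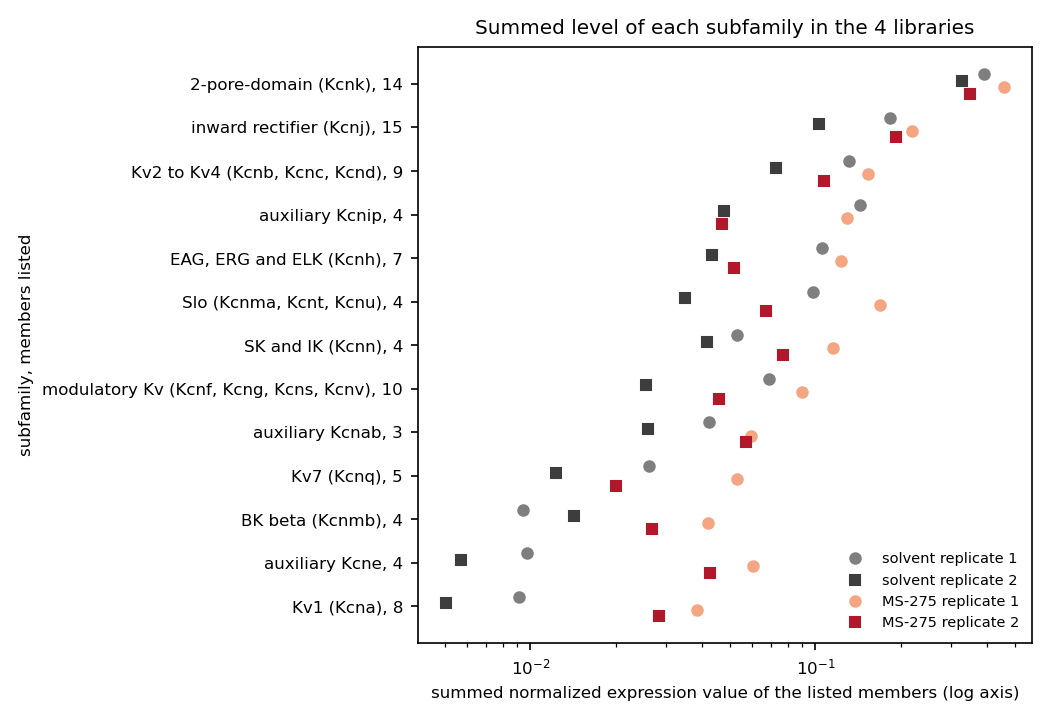
Summed normalized value of each subfamily's listed members in the 4 libraries, on a log axis, with 1 symbol per library. The 2-pore-domain genes held the highest sum in solvent, 0.360 ± 0.0453 (SD, n = 2), and the auxiliary Kcne genes were among the lowest there, at 0.00771 ± 0.00282.

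Of the 91 members, 74 could be tested and 17 fell under the minimum. With MS-275, 22 members rose, which is 29.7% of those tested, while 21.0% of all genes tested rose. Another 5 members fell (6.76%), against 6.46% of all genes, and 47 did not pass. Of the genes that rose, Kcna1, Kcna3, Kcna4, Kcna6, Kcnh5 and Kcnk18 were under 0.001 in both solvent libraries. They reached the test only through their MS-275 values, which favours rises. The same filter held for all genes. The median log2 fold change of the tested members was 0.37, and that of all genes tested 0.20. In the replicate pairs taken singly it was 0.47 and 0.28, against 0.13 and 0.24 for all genes. Both pairs pointed up for 45 members and down for 14, and they disagreed for 15. On this scale the largest rises were those of Kcnj2, Kcnn3, Kcne1, Kcng1 and Kcne3, and the falls were those of Kcnj3, Kcnk1, Kcnj12, Kcns3 and Kcnj6.

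**Figure D2:**
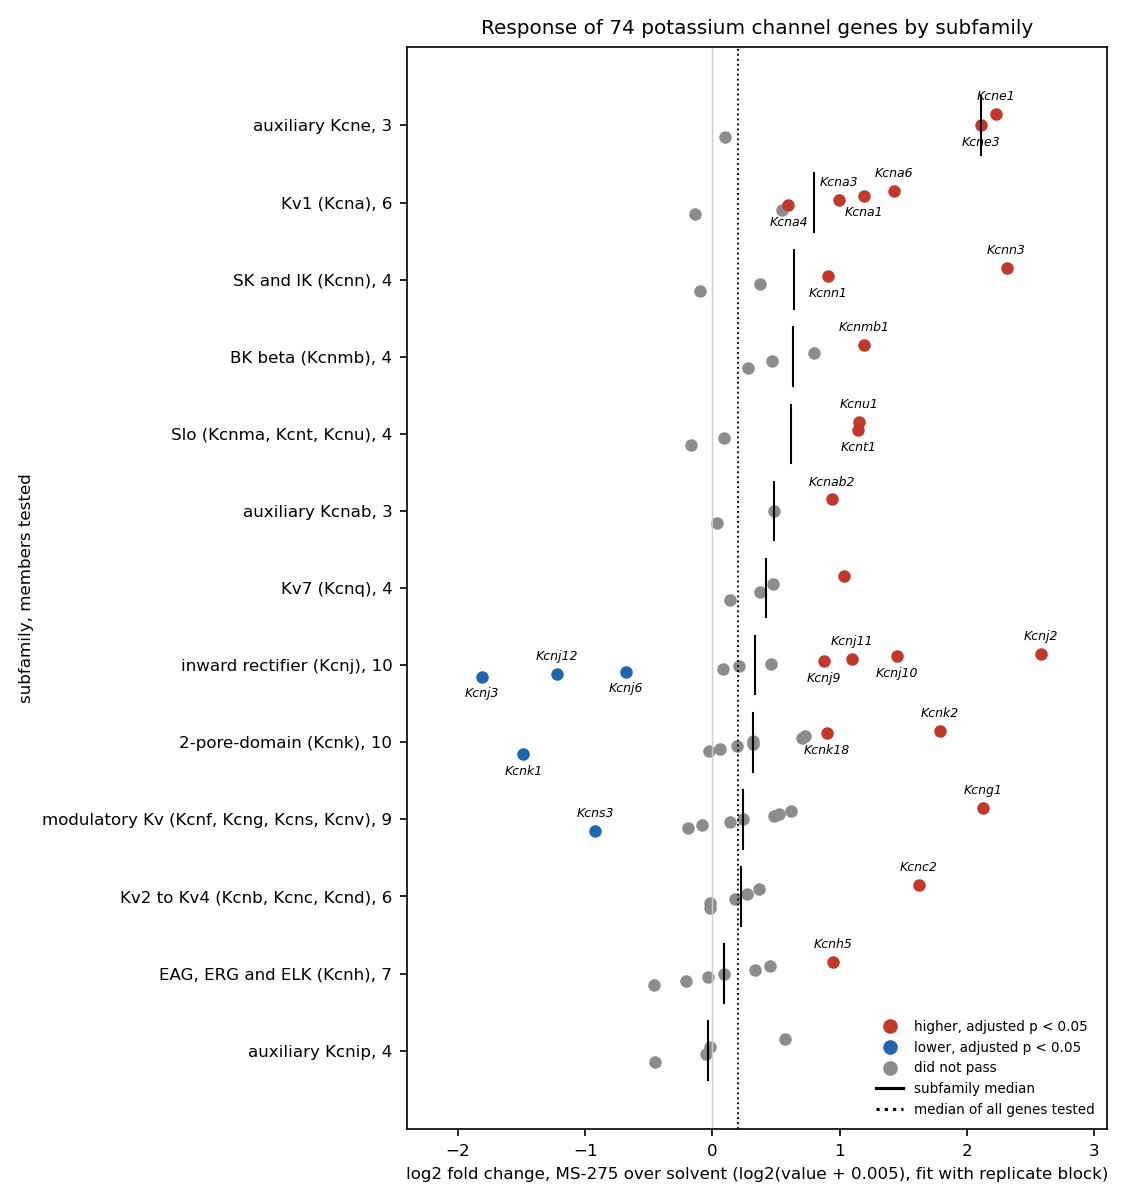
Log2 fold change of MS-275 over solvent for the 74 tested members, 1 point per gene, grouped by subfamily in the order of the subfamily medians (black bars). Red points mark the 22 genes that rose, blue the 5 that fell and grey those that did not pass, and the dotted line is the median of all genes tested, 0.20.

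These calls rest on the pairing. Without the block no member passed in either direction in limma, against 0.00492% of all genes higher and 0.0% lower. The adjusted p of the 22 genes then ran from 0.0600 to 0.569 and that of the 5 from 0.153 to 0.648. At an unadjusted p under 0.05 without the block, 19 members were higher (14.6% of all genes) and 2 lower (2.77%). The scaling also matters, since the median of all genes moved from 0.20 as deposited to -0.014 when libraries were scaled by their median ratio and to -0.032 after quantile normalization. Relative to it, the members' median stood 0.17 higher as deposited, 0.22 higher with the median ratio and 0.015 lower after quantile normalization. The split of higher and lower calls was 22 and 5 as deposited, 20 and 5 with the median ratio, and 14 and 8 after quantile normalization. All 5 genes that fell remained lower under both, and the 14 were all among the 22.

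A rule without a test counted all 91 members, with values under 0.001 set to 0.001. By it, 22 members (24.2%) were at least 2-fold higher in both pairs, against 11.5% of all listed genes, and 4 (4.40%) were at least 2-fold lower in both, against 2.04%. Of these, 20 and 4 also passed limma. Both MS-275 libraries lay above both solvent libraries for 46 members (50.5%, against 26.1% of all genes) and below them for 4 (4.40%, against 9.09%). The 28250 listed genes include 4500 at 0 in every library, which can meet neither rule, and the 91 members include 2. The shares of all genes are lowered by this. All 22 genes that rose were among the 46. Of the 5 that fell, Kcns3 alone had groups that overlapped.

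The rises started from low levels. The mean value of the 22 genes with solvent ranged from 0.000125 to 0.0269 with a median of 0.00248, and it was under 0.005 for 17 of them. With MS-275 it ranged from 0.00297 to 0.0805 with a median of 0.0170. Among tested members with a mean between 0.005 and 0.02 over all libraries, 13 of 24 rose and 0 fell in limma, where 34.6% of all genes in that range rose and 3.34% fell. Under 0.005, 5 of 31 members rose and 1 fell, beside 20.1% and 1.46% of genes. At 0.02 or more, 4 of 19 rose and 4 fell, beside 17.5% and 8.86%. The means that set these ranges include the MS-275 libraries, so a rise itself moves a gene up a range. The counts by range therefore do not show dependence on the starting level.

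**Figure D3:**
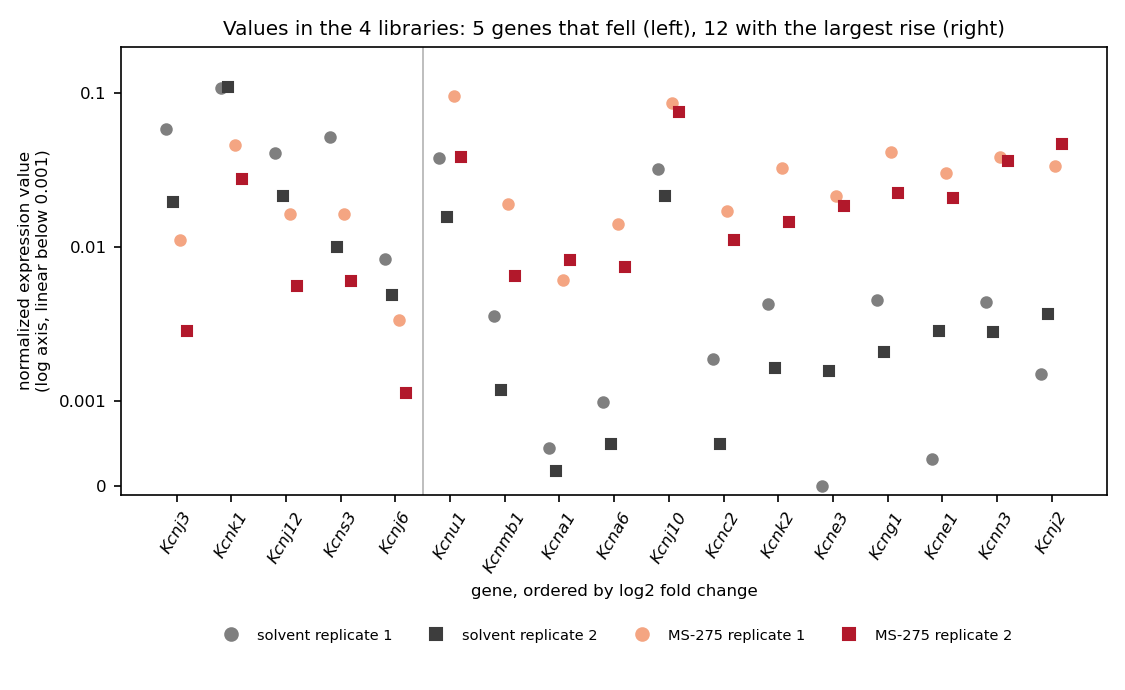
Normalized value in each of the 4 libraries for the 5 genes that fell (left of the line) and the 12 with the largest rise (right), on an axis that is logarithmic above 0.001 and linear below. The MS-275 points of the 12 genes on the right lie above both solvent points, and of the 5 on the left only Kcns3 has overlapping groups.

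The inward rectifiers (Kcnj) held the largest fall and, on log2(value + 0.005), the largest rise of all members. On distinct alignment positions Kcnj2, at a log2 fold change of 3.65, was not the largest. Larger there were Kcna1 (5.31), Kcnh5 (4.82), Kcne3 (4.47), Kcnc2 (3.79), Kcna6 (3.69) and Kcnn3 (3.69). Inward rectifiers pass potassium more readily into the cell than out of it and hold the resting potential of muscle, heart and glia. Of 15 listed genes, 10 were tested, 4 rose, 3 fell and 3 did not pass, beside 21.0% of all genes higher and 6.46% lower. Kcnj2, which carries the classical inward rectifier current of heart and skeletal muscle, stood at 0.0015 and 0.00369 in solvent replicates 1 and 2 and at 0.0338 and 0.0469 in MS-275 replicates 1 and 2. The MS-275 libraries were far above the solvent libraries in both pairs. The group means were 0.00259 ± 0.00155 and 0.0404 ± 0.00926 (SD, n = 2), a ratio of 15.6, and the log2 fold change was 2.58 (SE 0.304, adjusted p = 2.5e-05). It lies on chromosome 11 of mm9 from 110927478 to 110938135.

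Kcnj12 encodes a close relative of Kcnj2 in the same inward rectifier group and moved the other way. Its values were 0.041 and 0.0216 with solvent and 0.0164 and 0.00557 with MS-275, so that both treated libraries were lower. The log2 fold change was -1.22 (SE 0.309, adjusted p = 0.00821), and -0.71 without MS-275 replicate 2. A fold with 1 library omitted is unpaired and so also holds the difference between replicates. Kcnj4, also of this group, had a log2 fold change of 0.21 and did not pass (adjusted p = 0.652).

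Genes of the channels opened by G protein beta and gamma subunits, which slow the heart and inhibit neurons, were called in both directions. Kcnj3, the subunit that joins the others in most such channels, fell from 0.0583 and 0.0195 with solvent to 0.0111 and 0.00285 with MS-275. Both treated libraries were under both controls. It fell at a log2 fold change of -1.81 (SE 0.31, adjusted p = 0.000518), and the solvent mean was 5.58 times the MS-275 mean. Without solvent replicate 1 the change was -1.12. Of its annotated exon bases, 68.9% are not shared with another gene. Kcnj6 had values of 0.00832 and 0.0049 with solvent and 0.00337 and 0.00113 with MS-275, a log2 fold change of -0.68 (SE 0.245, adjusted p = 0.0492). The alignments behind Kcnj6 covered 6 distinct positions with solvent and 10 with MS-275, the opposite order. Kcnj9, which joins such channels in brain, rose from 0.0025 and 0.00205 to 0.00881 and 0.00793, with a log2 fold change of 0.88 (adjusted p = 0.0175). It did not pass after quantile normalization (0.41, adjusted p = 0.243). Kcnj5, the cardiac partner of Kcnj3, was listed at 0 in both solvent libraries and at 0.00082 and 0.00044 with MS-275.

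Kcnj10 encodes the main inward rectifier of astrocytes, where it helps to clear extracellular potassium. Its value was 0.0321 and 0.0214 with solvent and 0.086 and 0.075 with MS-275. No library of one group reached the other. The means were 0.0268 ± 0.00762 and 0.0805 ± 0.00782 (SD, n = 2), and the log2 fold change was 1.45 (SE 0.274, adjusted p = 0.00109). Kcnj11 encodes the pore of the ATP-sensitive channel that couples glucose to insulin release in beta cells. It rose from 0.00348 and 0.00199 to 0.0114 and 0.0116, with a log2 fold change of 1.10 (SE 0.27, adjusted p = 0.00671), but it did not pass after quantile normalization (0.62, adjusted p = 0.0959). Kcnj8, the other ATP-sensitive pore, stayed under the minimum for a test. Kcnj13 and Kcnj14 did not pass, with log2 fold changes of 0.46 and 0.080.

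The promoter stretches of genes at both ends of this scale are shown so that they can be set side by side. RefSeq windows on GRCm38.p6, which run from 250 bases before to 50 bases after the annotated start, were found for 66 of the 91 members. The 250 bases before the start are printed 5′ to 3′ on the plus strand, on which all 4 genes lie, with each CG dinucleotide in capitals. The stretches belong to Kcnj2 and Kcnn3, with the highest log2 fold changes on log2(value + 0.005), and to Kcnj3 and Kcnk1, with the lowest.
Kcnj2, chr11:111065914-111066163: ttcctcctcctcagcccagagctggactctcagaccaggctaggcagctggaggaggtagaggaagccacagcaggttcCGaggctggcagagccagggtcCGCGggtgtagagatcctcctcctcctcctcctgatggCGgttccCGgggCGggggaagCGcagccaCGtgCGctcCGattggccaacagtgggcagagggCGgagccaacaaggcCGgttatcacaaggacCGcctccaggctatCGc
Kcnn3, chr3:89519914-89520163: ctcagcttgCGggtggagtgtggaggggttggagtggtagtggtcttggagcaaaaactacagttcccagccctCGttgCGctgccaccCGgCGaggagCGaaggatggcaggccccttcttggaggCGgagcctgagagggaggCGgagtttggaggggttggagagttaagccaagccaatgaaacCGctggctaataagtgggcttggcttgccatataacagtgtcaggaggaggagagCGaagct
Kcnj3, chr2:55435720-55435969: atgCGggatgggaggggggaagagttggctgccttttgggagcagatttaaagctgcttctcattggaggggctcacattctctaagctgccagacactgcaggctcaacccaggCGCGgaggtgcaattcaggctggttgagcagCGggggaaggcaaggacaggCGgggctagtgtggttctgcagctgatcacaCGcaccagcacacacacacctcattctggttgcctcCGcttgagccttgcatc
Kcnk1, chr8:125994852-125995101: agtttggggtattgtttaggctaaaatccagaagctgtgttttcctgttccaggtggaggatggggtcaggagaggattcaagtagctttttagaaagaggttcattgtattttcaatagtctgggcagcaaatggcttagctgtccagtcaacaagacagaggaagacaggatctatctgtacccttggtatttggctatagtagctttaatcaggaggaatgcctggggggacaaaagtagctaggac
The stretches of Kcnj2 and Kcnn3 hold 14 and 10 CG dinucleotides, and those of Kcnj3 and Kcnk1 hold 7 and 0. The whole 300-base windows hold 18, 11, 10 and 10, so that the count of 0 for Kcnk1 comes from leaving out the last 50 bases. Over whole windows the median was 16 for the 15 members that rose and have a window and 10 for the 5 that fell, against 16 and 19 for all genes that rose and fell. The median ratio of observed to expected CG was 0.52 for the members that rose and 0.59 for those that fell. For all genes that rose and fell it was 0.63 and 0.71. The median count was 14 for the 66 members and 14 for the 17840 listed genes with a window. The letters GGGCGG, read on both strands, occurred in 53.3% of the windows of members that rose, in 40.0% of those that fell, in 54.5% of all member windows and in 47.6% of the windows of all genes. TATAAA, also read on both strands, occurred in 6.7%, 0.0%, 4.5% and 12.7% of the same windows. The shares of all genes include genes that were not tested, with 7.8% for GGGCGG and 27.7% for TATAAA. Over all genes that rose and fell, GGGCGG occurred in 58.7% and 58.8% and TATAAA in 10.6% and 7.5%. Members that did not pass held them in 68.8% and 3.1%. These are descriptions of letters and not of factor binding.

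The 2-pore-domain genes (Kcnk), which encode leak channels open at rest, included the most strongly expressed members. Of 14 listed, 10 were tested, 2 rose and 1 fell, shares near those of all genes tested (21.0% and 6.46%). Kcnk2, whose channel opens on membrane stretch and polyunsaturated lipids, went from 0.00424 and 0.00163 with solvent to 0.0325 and 0.0145 with MS-275. Both treated libraries were higher, with a ratio of group means of 8.01. This was a log2 fold change of 1.79 (SE 0.296, adjusted p = 0.000395). Kcnk18, which encodes a leak channel of sensory neurons, rose from 0.00064 and 0.00056 to 0.00808 and 0.00331 (log2 fold change 0.90, adjusted p = 0.0112), a call lost after quantile normalization (0.51, adjusted p = 0.0895).

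Kcnk1, a founding gene of this family, was the second most expressed member in solvent and fell. Its value was 0.108 and 0.109 with solvent and 0.0459 and 0.0275 with MS-275. The controls were nearly equal and both treated libraries were well below them. The means were 0.109 ± 0.000594 and 0.0367 ± 0.013 (SD, n = 2), and the log2 fold change was -1.49 (SE 0.266, adjusted p = 0.000711). Kcnk4, a mechanically gated relative of Kcnk2, stood at 0.0677 and 0.0299 with solvent and 0.0856 and 0.0715 with MS-275. Its log2 fold change of 0.73 (SE 0.275) did not pass (adjusted p = 0.0612), and only 12 and 24 distinct alignment positions lay on its exons in the solvent and MS-275 groups. Kcnk3, Kcnk6, Kcnk7, Kcnk12 and Kcnk16 did not pass, and Kcnk9, Kcnk10, Kcnk13 and Kcnk15 were not tested.

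Among the voltage-gated alpha subunits, the Kv1 genes (Kcna) held the most rises. Kv1 channels open at small depolarisations and limit firing in axons, and Kcna3 is also the main Kv channel of T cells. Of 8 listed genes, 6 were tested, 4 rose and 0 fell in limma, with a median log2 fold change of 0.79. Over all genes tested 21.0% rose and 6.46% fell, with a median of 0.20. The 4 that rose, and Kcna5, were under 0.001 in both solvent libraries. They reached the test only through their MS-275 values, and such genes can hardly fall. The filter thus tilts the count and median of Kcna towards rises, and they do not show a trait of the subfamily. Kcna1 was at 0.00044 and 0.00018 with solvent and at 0.00614 and 0.00818 with MS-275. Kcna6 was at 0.00098 and 0.00049 and went to 0.0141 and 0.00745. Both genes were thus barely listed in the controls and clearly present in each treated library. Their log2 fold changes were 1.19 (SE 0.235, adjusted p = 0.00148) for Kcna1 and 1.43 (SE 0.256, adjusted p = 0.00073) for Kcna6, of whose exon bases 60.5% are not shared with another gene. Kcna3 and Kcna4 rose by 0.99 and 0.60 on the same scale. For Kcna4 this came close to the threshold (adjusted p = 0.0454), and it did not pass after quantile normalization. Kcna5 (0.55, adjusted p = 0.0672) and Kcna7 (-0.14) did not pass, and Kcna2 and Kcna10 were not tested.

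In the Kv3 subfamily (Kcnc), which lets neurons fire at high rates, Kcnc2 rose. It went from 0.00187 and 0.00049 with solvent to 0.0172 and 0.0111 with MS-275. Both treated libraries were well above both controls, at a log2 fold change of 1.62 (SE 0.264, adjusted p = 0.000341). Kcnd1 of the Kv4 subfamily stood at 0.0664 and 0.0235 with solvent and 0.0464 and 0.0336 with MS-275. Its groups overlapped, and it did not pass. Kcnb2, Kcnd2 and Kcnd3 were not tested.

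Modulatory alpha subunits (Kcnf, Kcng, Kcns and Kcnv) form no channel on their own and alter Kv2 channels when they join them. Of 10 listed, 9 were tested, 1 rose and 1 fell, beside 21.0% and 6.46% of all genes tested. Kcng1 rose from 0.0045 and 0.00208 with solvent to 0.0415 and 0.0226 with MS-275. The treated libraries were far above both controls, with a ratio of group means of 9.74. On the log2 scale the change was 2.13 (SE 0.303, adjusted p = 0.000114). Kcns3 went from 0.0519 and 0.00997 to 0.0165 and 0.00605, with a log2 fold change of -0.92 (SE 0.33, adjusted p = 0.0485). The fall of Kcns3 rests on solvent replicate 1, without which its change was 0.042. It was -1.89 without solvent replicate 2, -1.40 without MS-275 replicate 1 and -0.44 without MS-275 replicate 2. Kcns1, at 0.62, lay just beyond the threshold (adjusted p = 0.05001).

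The Kv7 genes (Kcnq), whose channels carry the neuronal M current and the slow repolarising current of the heart, held 1 rise among 4 tested. Over all genes tested 21.0% rose. Of the 7 Kcnh genes, Kcnh5 alone rose. It was listed at 0.00025 and 0 with solvent and at 0.00858 and 0.00222 with MS-275, with a log2 fold change of 0.95 (adjusted p = 0.00857). Kcnh2, the mouse gene of the ERG channel that repolarises the heart, stood at 0.0331 and 0.0144 with solvent and 0.0454 and 0.0183 with MS-275. Its log2 fold change of 0.33 did not pass (adjusted p = 0.442).

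Calcium-activated and sodium-activated channels rose in part. In the small- and intermediate-conductance group (Kcnn), 2 of 4 rose and 0 fell in limma, beside 21.0% and 6.46% of all genes. Kcnn3, whose channel gives neurons their afterhyperpolarisation, stood at 0.00437 and 0.00279 with solvent and at 0.0384 and 0.0364 with MS-275. The replicates lay close together in both groups. The means were 0.00358 ± 0.00112 and 0.0374 ± 0.00146 (SD, n = 2), a ratio of 10.4, and the log2 fold change was 2.31 (SE 0.306, adjusted p = 6.1e-05). Kcnn1 rose by 0.91 (adjusted p = 0.037). That call was lost with median-ratio scaling and with quantile normalization. Kcnn2, the most expressed of the group with solvent but not with MS-275, had values of 0.0308 and 0.0278 with solvent and 0.0349 and 0.0206 with MS-275, with a log2 fold change of -0.10 (adjusted p = 0.841), and Kcnn4 did not pass at 0.37.

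In the Slo family, Kcnu1, which encodes the alkaline-activated channel of sperm, had the highest mean over the 4 libraries, although Kcnt2 was higher with solvent (0.0305 against 0.0269). Its value was 0.0381 and 0.0156 with solvent and 0.0959 and 0.0384 with MS-275. The ratio of group means was 2.50, and the replicates of a group differed by as much. The log2 fold change was 1.15 (SE 0.282, adjusted p = 0.00657). It was 0.54 without MS-275 replicate 1, 0.62 without solvent replicate 2 and 1.76 without MS-275 replicate 2. Kcnt1, a sodium-activated channel gene of neurons, rose from 0.0109 and 0.00359 to 0.0316 and 0.0134 (1.15, SE 0.302, adjusted p = 0.0102). It did not pass after quantile normalization (0.64, adjusted p = 0.139). Its relative Kcnt2 stood at 0.0457 and 0.0153 with solvent and 0.0384 and 0.0139 with MS-275 (-0.16, adjusted p = 0.727). Kcnma1, the pore of the large-conductance calcium-activated (BK) channel, did not pass at 0.092 (adjusted p = 0.796). Of its beta subunits (Kcnmb), Kcnmb1, the form of smooth muscle, rose from 0.00354 and 0.00118 to 0.019 and 0.00644, with a log2 fold change of 1.19 (SE 0.276, adjusted p = 0.00458) that was 0.66 without MS-275 replicate 1. Kcnmb4, the neuronal form, went from 0.00503 and 0.00812 to 0.0152 and 0.0147 and missed the threshold (0.80, adjusted p = 0.0567).

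Auxiliary subunits of the voltage-gated channels come in several types. Of the 4 Kcne genes, whose single-span proteins slow or hold open the Kcnq1 channel, 3 were tested and 2 rose, beside 21.0% of all genes. Kcne1 was at 0.00032 and 0.00284 with solvent and at 0.0305 and 0.0208 with MS-275. Kcne3 was listed at 0 and 0.00157 with solvent and at 0.0213 and 0.0184 with MS-275. Both were near the floor in the controls and several times higher in each treated library. Their log2 fold changes were 2.23 (SE 0.314, adjusted p = 0.000104) for Kcne1 and 2.11 (SE 0.282, adjusted p = 6.5e-05) for Kcne3. Kcnq1, the alpha subunit that both join, had a log2 fold change of 0.47 and did not pass on the values (adjusted p = 0.136). Kcne2 did not pass at 0.099, and Kcne4 was not tested.

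Of the cytoplasmic Kv beta subunits (Kcnab), Kcnab2 rose from 0.0143 and 0.00738 to 0.0233 and 0.026 (0.94, SE 0.322, adjusted p = 0.04). This call was lost with median-ratio scaling and with quantile normalization. Kcnab3, the highest of the 3, did not pass (0.48, adjusted p = 0.258). The Kcnip genes encode calcium-binding partners of Kv4 channels, and none of the 4 passed in limma. Over all genes tested 21.0% rose and 6.46% fell, so 4 genes are too few to show a difference. Kcnip2 stood at 0.069 and 0.0214 with solvent and 0.0672 and 0.0203 with MS-275. Kcnip3 stood at 0.0394 and 0.017 with solvent and 0.0363 and 0.0181 with MS-275. In both genes the replicates differed far more than the conditions did within a pair, and the log2 fold changes were -0.050 (SE 0.282) and -0.017 (SE 0.302).

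**Figure D4:**
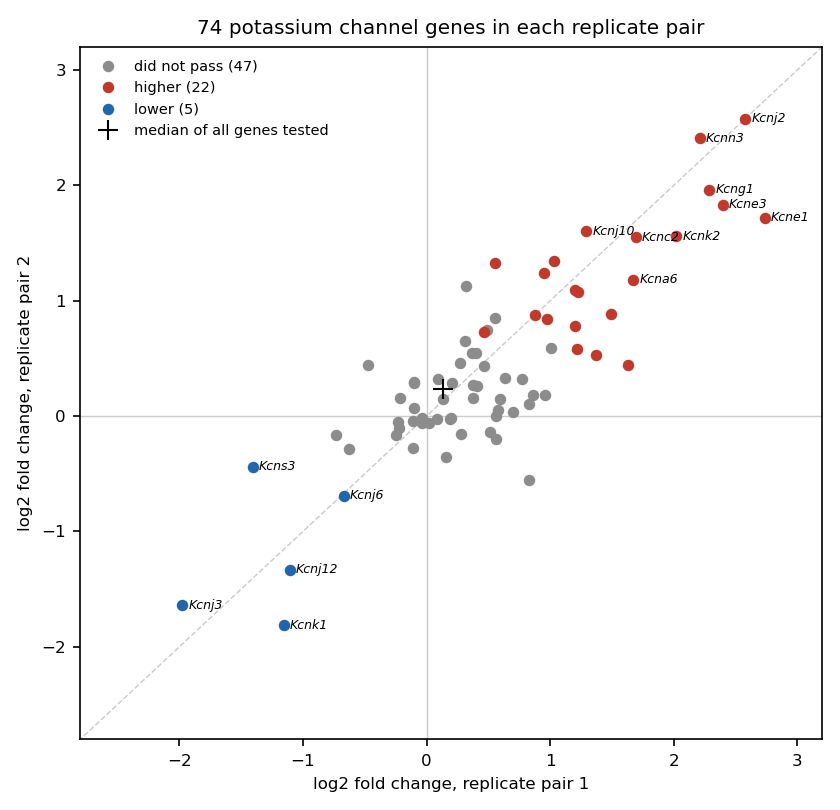
Log2 fold change in replicate pair 1 (horizontal) against replicate pair 2 (vertical) for the 74 tested members, each on log2(value + 0.005). Genes that rose lie in the upper right and genes that fell in the lower left, and Kcnj2 sits at 2.58 in both pairs while Kcns3 is at -1.40 and -0.44.

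The alignments gave a second count. Distinct alignment positions on exon bases that belong to a single gene were counted for GENCODE M1 on mm9 and tested by limma-voom with the same block. The names of the alignment files run opposite to the headers of the value lists, so the replicate within a condition is uncertain for them, and positions are given as the sum of a group. Of the 56 members with enough positions, 30 were higher (53.6%, against 29.9% of the 16976 genes tested) and 5 lower (8.93%, against 13.9%). Without the block, 19 were higher (15.2% of genes) and 3 lower (5.11%). All 22 members that rose on the values were higher by this count with the block, and 19 of them without it. Kcnab2 and Kcnj9 were among those that needed the block. Of the 5 that fell, Kcnj3, Kcnk1, Kcnj12 and Kcns3 were lower and Kcnj6 was not tested, and without the block Kcns3 no longer passed. The median log2 fold change of the members was 0.98 and that of all genes 0.14.

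The positions show how thin the control signal was. Kcnj2 had 42 distinct positions over both solvent libraries and 469 over both MS-275 libraries. Kcng1 went from 37 to 338, Kcnn3 from 18 to 228, Kcnc2 from 14 to 194 and Kcnk2 from 24 to 182. Kcna1 went from 3 to 159, Kcne3 from 3 to 59 and Kcnh5 from 1 to 52. For these last 3 genes the control level is thus set by a handful of alignments, and the size of the change is not well determined. All falls but that of Kcnj6 rested on more. Kcnj3 had 353 and 57 positions, Kcnk1 362 and 127, Kcnj12 183 and 59 and Kcns3 139 and 59. Kcnj6 had 6 with solvent and 10 with MS-275, the opposite order to its values.

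**Figure D5:**
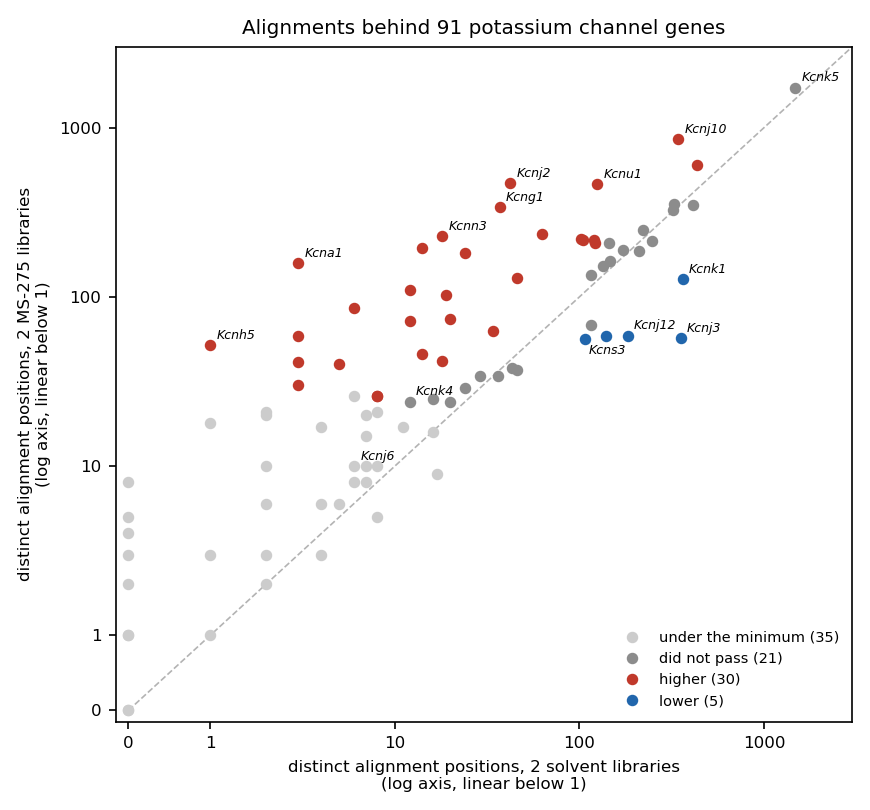
Distinct alignment positions on unshared exon bases of the 91 members, summed over the 2 solvent libraries (horizontal) and the 2 MS-275 libraries (vertical), on axes that are logarithmic above 1 and linear below. The 30 red genes lie above the line of equality and the 5 blue ones below it, and Kcnk5, with 1476 and 1725 positions, is the deepest.

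Another 8 members were higher by positions and had not passed on the values. Among them were Kcnab3, Kcnc1, Kcng3, Kcnk6, Kcnmb4, Kcnq1 and Kcnv2, which were named after their values were seen. Kcnq1 had 8 and 26 positions (log2 fold change 1.73, adjusted p = 0.0355). Kcnh3 was the 1 further gene that was lower, with 107 and 56 positions (-0.89, adjusted p = 0.0289). Kcnd1 and Kcnn2 had a small negative fold on the values and a small positive one on the positions, 0.15 and 0.22, and passed on neither.

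Some members lie beside each other in the genome. Kcnj9 and Kcnj10 are 11.9 kb apart on chromosome 1 of mm9, and both rose. Kcna5, Kcna1 and Kcna6 lie in a row on chromosome 6 with gaps of 101.0 and 62.5 kb, and the last 2 rose. In other neighbours only a single gene was called, which does not show opposite movement. Kcne1 rose while Kcne2, 47.9 kb away on chromosome 16, had a log2 fold change of 0.099 and did not pass. Kcnj2 rose on chromosome 11 while Kcnj16, 38.2 kb away, had too low a value for a test. Kcnj16 was listed at 0.00085 and 0.00024 with solvent and at 0.00419 and 0.00051 with MS-275. Kcnmb1 lies within the span of Kcnip1 on chromosome 11. The library kit is not described as marking strand, so alignments where genes overlap cannot be assigned by strand. The annotated exons of Kcnmb1 and Kcnip1 share no bases, however, and the position count kept all of them.

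Proteins that work with these channels or move potassium by other means were followed as a list of 40 genes, of which 36 were tested. Of these, 12 rose, 2 fell and 22 did not pass, where 21.0% of all genes tested rose and 6.46% fell. The median log2 fold change was 0.47, against 0.20 for all genes. By size the leaders were 2 FXYD genes, whose small membrane proteins regulate the sodium pump. Fxyd7 was at 0.00452 and 0.00063 with solvent and 0.0649 and 0.076 with MS-275 (3.36, SE 0.331, adjusted p = 6e-06). Fxyd1 was at 0.00605 and 0.00378 and went to 0.0569 and 0.101 (3.04, SE 0.334, adjusted p = 1.4e-05). The largest fall was in the same family. Fxyd6 went from 0.874 and 3.06 to 0.384 and 0.909 (-1.46, SE 0.315, adjusted p = 0.00279), and Slc12a7, a potassium chloride cotransporter, from 0.27 and 0.171 to 0.202 and 0.0828 (-0.71, SE 0.23, adjusted p = 0.031). With a library omitted, the fall of Fxyd6 was -2.37 and -0.56 without solvent replicates 1 and 2 and -0.85 without MS-275 replicate 1. That of Slc12a7 was -0.39 without solvent replicate 1, and -1.33 and -0.091 without MS-275 replicates 1 and 2. None of the 40 passed without the block in limma.

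Several partners of members were among the 12 and are named here after their values were seen. Abcc8 and Abcc9 encode the sulphonylurea receptors that complete the ATP-sensitive channel with Kcnj11 or Kcnj8. They rose by 0.89 (adjusted p = 0.0384) and 1.60 (adjusted p = 0.00092). Lrrc52, the auxiliary subunit of the Kcnu1 channel, rose by 1.34 (adjusted p = 0.000879). Lrrc55, an auxiliary subunit of the BK channel, rose by 2.00 (adjusted p = 0.000164), as Kcnmb1 did, while Kcnma1 itself did not pass. Other listed partners were not called. Lrrc38 (0.49, adjusted p = 0.118), Dpp6 (-0.53, adjusted p = 0.179) and Amigo1 (0.32, adjusted p = 0.478) did not pass, and Lrrc26 and Dpp10 were not tested.

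Markers of other cell types were read in the same fit, since several members are best known from those cells. In bulk RNA, fewer cells of a type and less RNA per cell cannot be told apart. The shares to set beside these counts are 21.0% of all genes tested that rose and 6.46% that fell. Of 10 pluripotency genes, 0 rose and 3 fell in limma (Esrrb, Pou5f1 and Utf1). Their summed value was 5.89 and 23.6 with solvent and 4.88 and 13.9 with MS-275, and all 10 were lower with MS-275 in both pairs, with a median log2 fold change of -0.53. Of 10 fibroblast genes that could come from feeders, 5 rose and 0 fell, while 6 were higher and 3 lower in both pairs. Their sum was 0.362 and 0.330 with solvent and 0.668 and 0.787 with MS-275. Of 9 skeletal and smooth muscle genes, 6 rose, and the sum was 0.212 and 0.127 against 0.631 and 0.296. Of the 8 cardiac genes 4 rose (0.176 and 0.179 against 0.247 and 0.362), and of the 8 neuronal genes tested 4 rose (1.23 and 2.29 against 1.30 and 2.29). Most of the neuronal sum was Stmn2, at 0.856 and 1.99 with solvent and 0.600 and 1.45 with MS-275, which did not pass. In both pairs 5 neuronal genes were higher and 1 lower. Among 10 glial genes, 5 rose and 1 fell, the last being Slc1a3, and the sum was 0.306 and 0.146 against 0.287 and 0.177. Of 5 beta cell genes only Pdx1 could be tested, and it rose, while Ins1 was listed at 0 in all 4 libraries. Of 4 kidney genes 2 were tested, with 1 fall (Nphs1). The part of these marker changes in the channel results was not tested.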

How the data were processed

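RNA-seq of 2 solvent and 2 MS-275 libraries (5 µM, 24 h) was analysed. Libraries were grouped by title, and the one called a duplicate was taken as replicate 2. The authors mapped reads to mm9 and deposited, per gene, a normalized expression signal made with Genomatix, whose formula, aligner and versions are not given in the sources used here. The depth behind a signal value cannot be read from it. They also deposited the alignments, of 35 bases. Tables of the study's ratios and its shorter tables were not used.

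Genes at 0.001 or more in at least 2 libraries were fitted in R 4.3.3 with limma 3.58.1 (lmFit, eBayes with a trend) on log2(signal + 0.005), with group and replicate as terms and Benjamini-Hochberg adjusted p under 0.05 over 20336 genes. The block was chosen since the authors deposited a ratio table per replicate pair. In their headers the replicate 1 libraries of both conditions carry the word old, and deviations from the group means correlated between same-numbered libraries at r = 0.764 (20336 genes) and 0.563 (74 members). Distinct alignment positions, placed by their middle base, were counted on unshared GENCODE M1 exon bases on mm9. A gene needed 10 or more such positions in 2 or more libraries to enter limma-voom. Coordinates of genes are from that annotation, and promoter windows from RefSeq on GRCm38.p6. Tables and plots used Python 3.11.15, numpy 2.4.6, pandas 2.3.3 and matplotlib 3.10.9. The tests were checked on simulated data.

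The members, the lists and the tests were chosen with earlier results of these data known. Named were the 12 members with the highest mean, the 12 with the largest rise and all with a fall among those that passed and moved the same way in both pairs, the highest member of each subfamily, and the 2 partner genes that rose and fell most. Results of 5 genes are not reported here. Any other gene is named as a count's content or as chosen after its values were seen. Alternatives were no block, pseudocounts of 0.001 and 0.02, no filter, a mean of at least 0.01, quantile and median-ratio scaling, no trend, positions, a 3-fold rule, a floor of 0.01, and fits that omit 1 library at a time.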

Additional observations from a re-analysis of the deposited data

How the results depend on the processing

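The replicate block decides the calls. With no replicate block, 0 members and 0 partner genes passed in either direction, although by unadjusted p under 0.05 the members numbered 19 higher and 2 lower, and the median log2 fold change of the members did not move. On positions with no replicate block 3 members and 1 partner gene were lower. With no filter on low values, which adds 4500 genes listed at 0 in every library, 0 members and 0 partner genes passed either way. With a mean of at least 0.01, fewer members were tested, and 11 were higher and 3 lower. Quantile normalization left 14 higher and 8 lower, pseudocounts of 0.001 and 0.02 left 3 lower, and eBayes without a trend left 1 partner gene lower. The members' median was 0.64 and 0.16 with pseudocounts of 0.001 and 0.02, -0.048 after quantile normalization, 0.20 with median-ratio scaling, and 0.98 and 0.94 on positions with and without the block. With each library left out in turn it ranged from 0.17 (without MS-275 replicate 1) to 0.56 (without MS-275 replicate 2), as values with no test, since a group then holds 1 library. The count of members at least 2-fold higher in both pairs was 6 with a floor of 0.01, and 28 and 40 with a single pair. The count of those lower was 2 with that floor, 1 at 3-fold, and 5 and 6 with a single pair. Of genes that did not pass, Kcnh2 turned to -0.11 with quantile normalization, and on positions Kcnd1 to 0.15 with and 0.17 without the block and Kcnn2 to 0.22 in both. Kcns3, which passed, ranged from -1.89 to 0.042 with a library left out, and turned positive without solvent replicate 1. With a library left out, genes that did not pass also changed sign, namely Kcnh2 (-0.22 to 0.89), Kcnt2 (-0.83 to 0.50), Kcnip2 (-0.81 to 0.71), Kcnip3 (-0.52 to 0.49), Kcnd1 (-0.68 to 0.65) and Kcnn2 (-0.42 to 0.22), and Kcnk4 ranged from 0.20 to 1.25. The cause of these shifts was not tested. Groups of 2 libraries allow no check for a library that stands apart, and under about 10 positions per group the size of a change is not determined.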
